A study of Mus musculus with 72 samples.

Results

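The complement and coagulation factor genes are 39 genes, 19 for the complement system and 20 for coagulation and its control, that were chosen by name. They and the gene lists further below were chosen with earlier results of these data known. Their shares beside those of all genes are therefore descriptions and not tests. Each symbol was matched to its Ensembl identifier in the count table through the GENCODE M21 annotation, and a member had to reach a mean of 1 CPM (the field's usual unit for a gene's counts scaled to a common library total) over all libraries. All 39 reached that level, of 51912 genes in the table, and all 39 were among the 12712 genes tested. The liver mRNA came from wild-type male C57BL/6J mice, 43 to 49 days old at the start, kept in 12 h of light and 12 h of darkness with free water. The 4 feeding paradigms were arrhythmic feeding to which the animals had not fully adapted (here incompletely adapted arrhythmic), arrhythmic feeding, night-restricted feeding and ad libitum feeding. Livers were taken at zeitgeber time (ZT, hours after lights on) 2, 6, 10, 14, 18 and 22, with 3 libraries per paradigm and time, which gave 18 libraries per paradigm and 72 in all. Judging by its title, the series asks whether rhythmic feeding or the liver's own clock drives rhythmic expression more. All groups share strain, sex and housing, and the labels give neither the feeding schedules nor the measure of adaptation. Whether replicates are separate animals is not stated either, and p-values then describe only the spread among these libraries, which may be technical.

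The complement system is a set of plasma proteins that mark and lyse microbes. Its classical and lectin pathways start from antibodies or sugars, its alternative pathway amplifies the activation, and all of them cleave C3 and end in a pore, the membrane attack complex. Coagulation is a cascade of proteases that ends with thrombin turning fibrinogen into fibrin, and anticoagulants and the fibrinolytic system hold it back or undo it. Hepatocytes secrete most of these proteins into the blood, several of them as acute phase proteins whose mRNA rises in inflammation.

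Total counts were 4342026 to 12286021 per library (median 6992793), and the 39 genes together took 2.53 to 4.2% of the counts of a library. All 10 hepatocyte markers were detected in every library, with a lowest value of 3042 CPM for Alb and 6242 CPM for Ttr, but of 46.1 CPM for Apob, 84.6 CPM for Cps1, 15.7 CPM for Pck1 and 3.15 CPM for Tat. The summed level of 10 macrophage markers ran from 374 to 1709 CPM under incompletely adapted arrhythmic, 607 to 1264 CPM under arrhythmic, 696 to 2461 CPM under night-restricted and 461 to 2509 CPM under ad libitum feeding. Of these 10 macrophage markers, 3 were rhythmic under night-restricted feeding, beside 6 of the 10 hepatocyte markers and 29.9% of all genes tested. None of the macrophage markers was listed at 0 in all libraries, and the part of either set in the results below was not tested. The libraries also differed in their GC slope, that is, how steeply the log2 deviations of genes from their means followed the GC content of the last 300 bases of each gene's longest transcript, in log2 units per SD of GC content. Its mean was -0.0548 ± 0.153 under incompletely adapted arrhythmic, -0.0155 ± 0.112 under arrhythmic, 0.0617 ± 0.165 under night-restricted and 0.00856 ± 0.108 under ad libitum feeding (SD, n = 18 each). The 5 libraries with the most extreme slopes were night-restricted replicate 1 at ZT 22, 2, 6 and 18 and incompletely adapted arrhythmic replicate 1 at ZT 10. Within groups of 1 paradigm and time, the members' log2 levels correlated with the GC slope from r = -0.863 for C1s1 to r = 0.915 for F7 over 72 libraries, with 14 of 39 below 0. The GC content of these last 300 bases was 39.3% for C1s1 and 55.3% for F7. It was 40% for Masp2 (r = 0.868) and 47.3% for C1ra (r = -0.643). A member's r thus did not always follow its own GC content, and what sets it was not tested. Results are therefore given beside their values with the GC slope as a covariate or without these libraries where these differ, and the part of the GC slope in each result was not tested.

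The library protocol reads each transcript at its 3′ end, so a CPM value is not divided by transcript length, and values of different genes are listed side by side in CPM and not compared. In the classical and lectin pathways the means over 72 libraries were C1ra (678 CPM) and C1s1 (136 CPM) for the proteases of the C1 complex, Mbl1 (261 CPM) and Mbl2 (564 CPM) for the mannose-binding lectins, Masp1 (1.15 CPM) and Masp2 (204 CPM) for their associated proteases, and C2 (82.5 CPM) and C4b (2037 CPM) for the parts of the C3-cleaving enzyme. C3, the component on which all pathways converge, averaged 4196 CPM and Cfb, the protease of the alternative pathway, 1.23 CPM. The terminal components, of which Hc encodes C5, were at Hc (750.2 CPM), C6 (59.3 CPM), C8a (461 CPM), C8b (100 CPM), C8g (216 CPM) and C9 (118 CPM). The regulators were at C4bp (203 CPM), Cfi (143 CPM) and Vtn (528 CPM), and Vtn encodes vitronectin, a plasma and matrix protein that also binds the terminal complex.

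Among the coagulation genes, F2, which encodes prothrombin, averaged 4712 CPM, and the other clotting proteases and cofactors were at F5 (241 CPM), F7 (107 CPM), F9 (164 CPM) and F10 (402 CPM). The contact system, which starts clotting at surfaces and releases bradykinin, was at F12 (1099 CPM), Klkb1 (541 CPM), Kng1 (3513 CPM) and F11 (7.34 CPM), where Klkb1 encodes plasma prekallikrein and Kng1 kininogen. The fibrinogen chains were at Fga (2023 CPM), Fgb (3710.3 CPM) and Fgg (1747 CPM), and F13b, the carrier subunit of the fibrin-crosslinking factor, at 63.1 CPM. The anticoagulants were at Serpinc1 (1829.5 CPM), Serpind1 (427 CPM), Proc (571 CPM) and Pros1 (78.1 CPM), the genes of antithrombin, heparin cofactor II, protein C and protein S. Plg, the gene of plasminogen, was at 1369.7 CPM, Serpinf2, the gene of the plasmin inhibitor, at 320.2 CPM, and Hrg, the gene of histidine-rich glycoprotein, at 267 CPM. The steadiest of the 5 members with the highest CPM was F2, which ran from 3789 to 5593 CPM (median 4688) under incompletely adapted arrhythmic, 4004 to 5594 CPM (median 5191) under arrhythmic, 3588 to 5530.2 CPM (median 4450.0) under night-restricted and 3867 to 5586 CPM (median 4753) under ad libitum feeding. C3 ran from 1959.6 to 5621 CPM (median 3234), 2290.4 to 6842 CPM (median 4142), 2412 to 10236 CPM (median 4255) and 2343 to 5317 CPM (median 3447) in the same 4 paradigms, and C4b from 966 to 3147 CPM (median 1791), 1239 to 3156 CPM (median 1887), 1109 to 3707 CPM (median 1847) and 1471 to 3144 CPM (median 1929.5). All 4 paradigms overlapped for these 3 genes, and the widest range of C3 was under night-restricted feeding. Masp1, the member of lowest CPM, ran from 0.385 to 2.55 CPM (median 0.882) under incompletely adapted arrhythmic, 0.615 to 2.42 CPM (median 1.21) under arrhythmic, 0.504 to 1.71 CPM (median 1.03) under night-restricted and 0.252 to 2.57 CPM (median 0.977) under ad libitum feeding, a handful of reads per library.

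**Figure D1:**
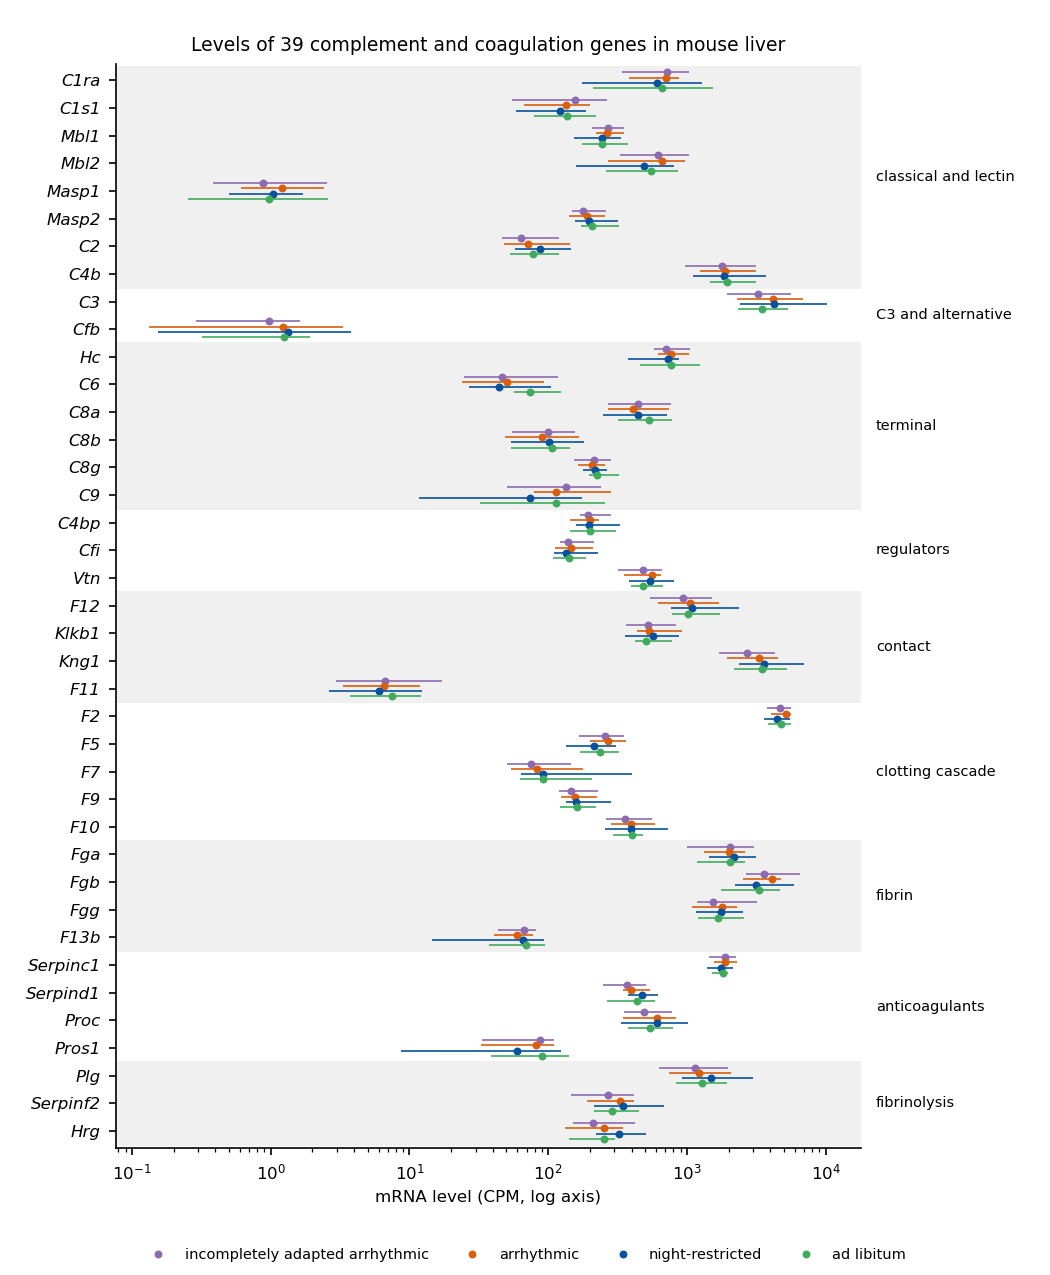
Level of each of the 39 genes (CPM, log axis) in the 4 feeding paradigms, by role; points are medians and lines run from the lowest to the highest of 18 libraries. The 4 paradigms overlap for every gene, and the lines are widest under night-restricted feeding for genes such as C9, F7 and Pros1.

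Some of these values rest on counts that overlapping genes could share, and neither the counting tool nor its strand setting is named in the labels. Of the exon bases of Cfb, 79.5% lie in Gm20547 on the same strand, as do 42.8% of those of C2, and Gm20547 had 0 counts. Klkb1 shares 43.2% of its exon bases with Gm45753 on the same strand, which also had 0 counts. Masp2 shares 54.9% of its exon bases with Tardbp on the opposite strand, which averaged 50.9 CPM. These shares are of all exon bases, whereas the protocol reads the 3′ end, so they do not measure how many reads were affected. The levels of Cfb, C2, Klkb1 and Masp2 are uncertain by an unknown amount. Those of C4b, Kng1, C1ra and C1s1 could be split with their close copies C4a, Kng2, C1rb and C1s2.

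Daily rhythms were found in a small set of the 39 genes, led by 2 of the 3 fibrinogen chain genes, the plasmin inhibitor and prekallikrein. A cosine of 24 h was fitted per paradigm, and the range is the fitted peak minus the fitted trough, in log2 units. Averaged over the 4 paradigms, 6 of 39 members (15.4%) were called rhythmic at a false discovery rate of 0.05, against 32.1% of all genes tested. With all libraries in edgeR, these 6 were Fga, Klkb1, Serpinf2, Fgg, Hrg and F5. In a bulk sample, fewer cells of a type and less RNA per cell cannot be told apart. With the GC slope as a covariate, 15 of 39 were called, against 46.3% of all genes, and the 15 included these 6. The other 9 were C2, F7, F9, Masp2, Fgb, C3, Mbl2, F2 and Cfi.

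The promoters of 5 genes are shown because they stand before the 3 fibrinogen chain genes, which lie together on chromosome 3, and the 2 other genes of lowest p for the average rhythm. The windows run from 250 bases before to 50 bases after the RefSeq transcription start in the build GRCm38.p6, 5′ to 3′ on the gene's strand. Capitals mark matches, on either strand, to GTTAAT (half-site of the factor HNF1), CTGGGAA (core of the interleukin-6 response element), TTCNNNGAA (STAT type), TTNNGCAA (C/EBP type), AGGTCA (nuclear receptor half-site), CACGTG (E-box) or TTATGNAA (D-box).
Fga promoter, chr3:83025903-83026202 (+): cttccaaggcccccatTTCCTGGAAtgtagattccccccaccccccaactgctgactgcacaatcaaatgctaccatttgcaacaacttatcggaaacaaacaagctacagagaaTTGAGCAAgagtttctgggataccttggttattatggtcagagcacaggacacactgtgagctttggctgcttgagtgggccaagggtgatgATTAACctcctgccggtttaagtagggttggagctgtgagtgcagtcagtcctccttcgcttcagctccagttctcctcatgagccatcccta
Fgb promoter, chr3:83049814-83050113 (-): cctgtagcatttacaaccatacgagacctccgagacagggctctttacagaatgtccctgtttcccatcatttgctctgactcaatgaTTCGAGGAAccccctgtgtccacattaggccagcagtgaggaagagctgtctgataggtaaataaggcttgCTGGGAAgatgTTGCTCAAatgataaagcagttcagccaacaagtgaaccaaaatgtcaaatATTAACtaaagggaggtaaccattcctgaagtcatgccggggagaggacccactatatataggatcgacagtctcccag
Fgg promoter, chr3:83007474-83007773 (+): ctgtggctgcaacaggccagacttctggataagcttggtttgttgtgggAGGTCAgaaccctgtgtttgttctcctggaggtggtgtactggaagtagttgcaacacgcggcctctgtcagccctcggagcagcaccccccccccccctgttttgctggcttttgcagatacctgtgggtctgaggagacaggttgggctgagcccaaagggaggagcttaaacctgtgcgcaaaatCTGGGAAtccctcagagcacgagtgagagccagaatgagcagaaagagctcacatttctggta
Serpinf2 promoter, chr11:75439452-75439751 (-): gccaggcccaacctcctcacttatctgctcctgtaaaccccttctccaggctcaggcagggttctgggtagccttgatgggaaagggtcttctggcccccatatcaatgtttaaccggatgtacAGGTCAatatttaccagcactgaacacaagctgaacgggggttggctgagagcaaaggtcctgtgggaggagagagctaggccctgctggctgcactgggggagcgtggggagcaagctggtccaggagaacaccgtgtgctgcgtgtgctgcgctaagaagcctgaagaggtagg
Klkb1 promoter, chr8:45294786-45295085 (-): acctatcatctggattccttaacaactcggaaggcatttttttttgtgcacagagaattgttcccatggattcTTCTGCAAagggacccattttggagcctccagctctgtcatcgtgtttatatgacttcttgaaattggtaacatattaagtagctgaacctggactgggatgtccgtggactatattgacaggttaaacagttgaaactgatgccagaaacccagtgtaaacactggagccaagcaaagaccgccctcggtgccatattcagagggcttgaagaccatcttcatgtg
The Fga and Fgb windows both held a STAT type, a C/EBP type and an HNF1 match, and the Fgb and Fgg windows both held CTGGGAA. Serpinf2 held 1 match, to AGGTCA, and Klkb1 held 1, to TTNNGCAA. No E-box and no D-box letters were found in these 5 windows. A match to letters is a description of the sequence and not a binding site.

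Fga encodes the fibrinogen alpha chain and lies on chromosome 3, 83026076 to 83033627, + strand of GRCm38. Its lowest mean stood at ZT 10 under incompletely adapted arrhythmic and arrhythmic feeding and at ZT 14 under night-restricted and ad libitum feeding. Its highest mean stood at ZT 22 under incompletely adapted arrhythmic, at ZT 2 under arrhythmic and night-restricted, and at ZT 6 under ad libitum feeding. The times given for Fga and for the genes after it were picked after their courses were seen, so that a lack of overlap between them is a description and not a test. Under incompletely adapted arrhythmic feeding Fga had 1026, 1332 and 1524 CPM at ZT 10, against 3036, 2139 and 2413 CPM at ZT 22. The 2 times did not overlap, and the same held for ZT 14 and ZT 2 under night-restricted feeding, with 3120.2, 2939 and 2599 CPM at ZT 2 and 1879, 1748 and 1589 CPM at ZT 14. Under arrhythmic feeding Fga had 2222, 2340.2 and 2244 CPM at ZT 2 and 1771, 1755 and 1901 CPM at ZT 14, and these also did not overlap. Under ad libitum feeding Fga had 2604, 2223 and 2195 CPM at ZT 6 and 1372, 1550.0 and 1184 CPM at ZT 14. Its log2 range was 0.98 ± 0.15 (SE), peaking at ZT 23.1 ± 0.603 h (adjusted p = 7.04e-05), under incompletely adapted arrhythmic feeding and 0.42 ± 0.15 at ZT 0.108 (adjusted p = 0.302) under arrhythmic feeding. Under night-restricted feeding it was 0.68 ± 0.15 at ZT 3.55 (adjusted p = 0.00223), and under ad libitum feeding 0.62 ± 0.15 at ZT 2.68 (adjusted p = 0.0203). Of the 4 paradigms, 3 passed the test, and on average the range was 0.59 ± 0.077 at ZT 1.21 ± 0.498 h (adjusted p = 3.70e-08). The call under incompletely adapted arrhythmic feeding was lost without its replicate 1 (adjusted p = 0.0504). That under ad libitum feeding was lost without its replicate 1 or 3, without a filter on low counts, and with the times as separate levels in place of a cosine.

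Fgg, the gamma chain gene on the same chromosome (83007724 to 83015049, + strand), had a like course on average, with a log2 range of 0.54 ± 0.10 at ZT 1.16 ± 0.694 h (adjusted p = 5.31e-05). Under night-restricted feeding Fgg had 2549, 2165 and 2156 CPM at ZT 2 and 1264, 1394 and 1171 CPM at ZT 14, with no overlap. Its range there was 0.80 ± 0.19 (adjusted p = 0.00473), and it lost its call without night-restricted replicate 1 (adjusted p = 0.118). Under incompletely adapted arrhythmic, arrhythmic and ad libitum feeding the ranges were 0.61 ± 0.19, 0.62 ± 0.19 and 0.22 ± 0.19, and none of these 3 passed the test (adjusted p = 0.124, 0.159 and 0.695). Fgb, the beta chain gene (3, 83040141 to 83049863, - strand), had an average range of 0.29 ± 0.11 at ZT 0.801 ± 1.42 h and did not pass (adjusted p = 0.0803). With the GC covariate its adjusted p was 0.00789, and without the 5 libraries of extreme slope 0.0214. Fgb ran from 2654 to 6514 CPM (median 3574) under incompletely adapted arrhythmic, 2520.0 to 4771 CPM (median 4121) under arrhythmic, 2203 to 5865 CPM (median 3138) under night-restricted and 1768 to 4706 CPM (median 3295) under ad libitum feeding. Within groups of 1 paradigm and time the 3 chains did not vary as a unit: over 72 libraries r was -0.131 for Fga and Fgb, -0.228 for Fga and Fgg, and 0.536 for Fgb and Fgg. Their own r with the GC slope of the same libraries was 0.447 for Fga, -0.5 for Fgb and -0.34 for Fgg. F13b had ranges of 0.144 to 0.397 in the 4 paradigms and passed in none.

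Serpinf2 lies on chromosome 11, 75431732 to 75439591, - strand, and its product blocks plasmin, the protease that dissolves fibrin. Under night-restricted feeding it had 681, 509 and 372 CPM at ZT 2 and 247, 216 and 249.7 CPM at ZT 14, with no overlap. Under arrhythmic feeding the same times gave 365, 367 and 353 CPM and 327, 314 and 252 CPM, again with no overlap. The log2 range was 0.74 ± 0.19 at ZT 0.222 under incompletely adapted arrhythmic (adjusted p = 0.0451), 0.16 ± 0.19 under arrhythmic (adjusted p = 0.883), 1.05 ± 0.19 at ZT 2.9 under night-restricted (adjusted p = 9.63e-05) and 0.66 ± 0.19 at ZT 5.8 under ad libitum feeding (adjusted p = 0.0481). The night-restricted call held under all 20 alternatives, while the call under ad libitum feeding was lost under 9 and that under incompletely adapted arrhythmic feeding under 13, among them the omission of each replicate of the paradigm itself. Hrg, whose product binds plasminogen, fibrinogen and heparin, peaked in the dark phase instead, with an average range of 0.44 ± 0.11 at ZT 19.3 ± 0.999 h (adjusted p = 0.0072). This average call was lost with the 6 times as separate levels in place of a cosine (edgeR, adjusted p = 0.104). Under night-restricted feeding Hrg had 238, 248 and 221 CPM at ZT 10, against 502, 288 and 406 CPM at ZT 22, without overlap. That rhythm (0.80 ± 0.23, adjusted p = 0.0209) lost its call without night-restricted replicate 1 (adjusted p = 0.258) or replicate 3. Plg had ranges of 0.55 ± 0.24, 0.47 ± 0.24, 0.66 ± 0.24 and 0.30 ± 0.24 under incompletely adapted arrhythmic, arrhythmic, night-restricted and ad libitum feeding and passed in none.

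Klkb1 lies on chromosome 8, 45266689 to 45294859, - strand, and its product, plasma prekallikrein, is activated by factor XII. Its fitted peak on average lay in the later part of the light phase. Under night-restricted feeding Klkb1 had 752, 878 and 606 CPM at ZT 10 and 408, 427 and 407 CPM at ZT 22. Under arrhythmic feeding it had 512, 924 and 618 CPM at ZT 10 and 487, 438 and 448 CPM at ZT 22. The 2 times did not overlap in either paradigm. The average range was 0.51 ± 0.079 at ZT 8.43 ± 0.591 h (adjusted p = 2.12e-06). Single paradigms gave 0.31 ± 0.16 under incompletely adapted arrhythmic, 0.49 ± 0.16 under arrhythmic, 0.83 ± 0.16 under night-restricted and 0.55 ± 0.16 under ad libitum feeding, and of these the night-restricted one passed (adjusted p = 1.97e-04), with 0.0547 under ad libitum feeding. F12, the factor that starts the contact system, peaked at ZT 2.77 under night-restricted feeding with a range of 0.86 ± 0.24 (adjusted p = 0.0146). F12 had 1968, 1262 and 1323 CPM at ZT 2 and 917, 802 and 963 CPM at ZT 14 there. Without night-restricted replicate 1 the adjusted p of F12 was 0.13, and with the GC covariate 0.109, at a range of 0.38. F11, the next gene to Klkb1 on chromosome 8 at a distance of 4657 bases, passed in no paradigm, at ranges of 0.118 to 0.715.

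**Figure D2:**
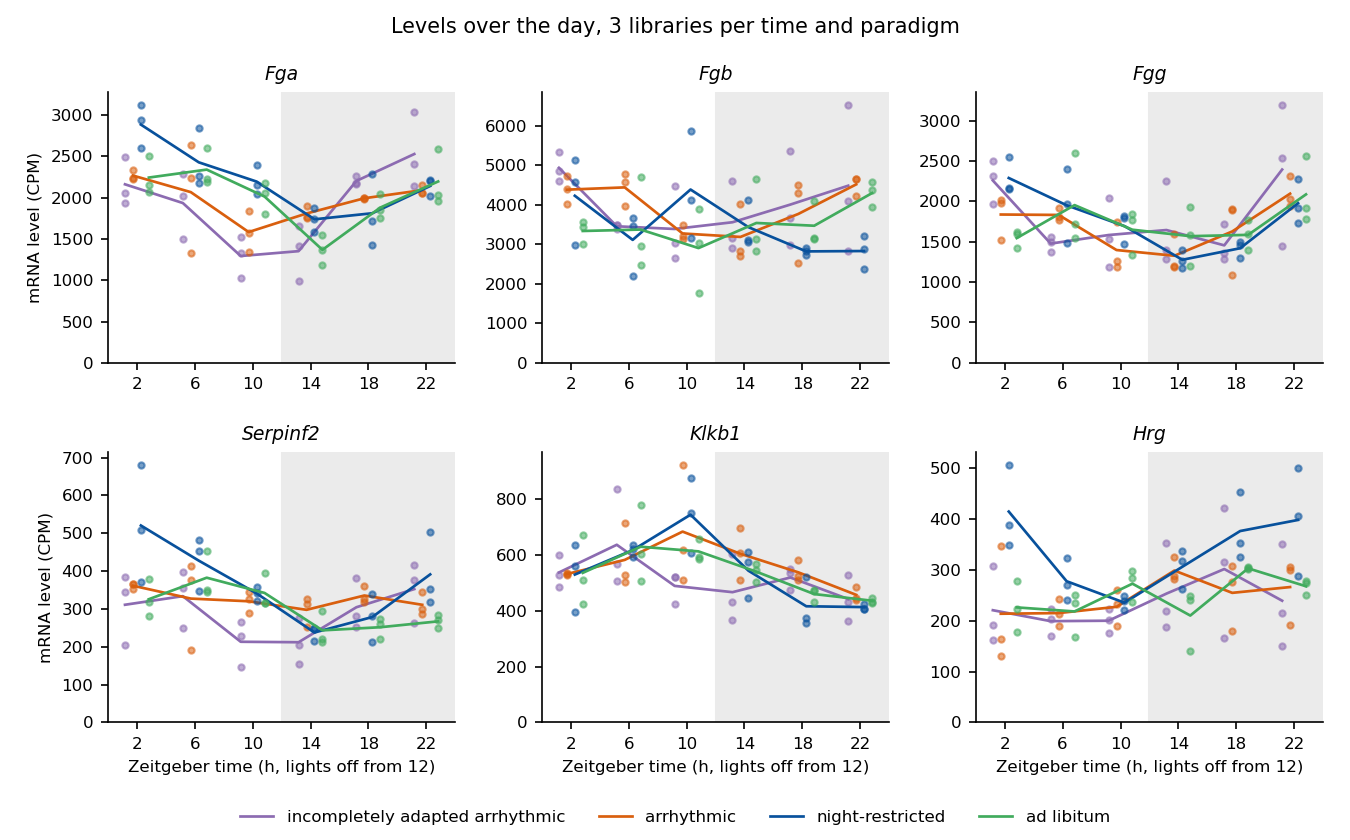
Levels (CPM) of Fga, Fgb, Fgg, Serpinf2, Klkb1 and Hrg over zeitgeber time in the 4 paradigms; points are single libraries (3 per time and paradigm, shifted sideways for clarity), lines join the means, and the dark phase is shaded. The mean of Fga is lowest at ZT 10 under both arrhythmic paradigms and at ZT 14 under night-restricted and ad libitum feeding, Klkb1 is highest at ZT 6 or ZT 10, and Hrg is highest at ZT 2 and ZT 22 under night-restricted feeding.

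By paradigm, 2 of 39 members were rhythmic under incompletely adapted arrhythmic feeding against 3.63% of all genes, 0 under arrhythmic feeding against 3.37%, 9 under night-restricted feeding against 29.9%, and 2 under ad libitum feeding against 7.48%. As shares these counts are 5.13% under incompletely adapted arrhythmic, 23.1% under night-restricted and 5.13% under ad libitum feeding. A block for replicate number within paradigm called more members, and more of all genes, under arrhythmic and night-restricted feeding and on average. Those counts are given at the end of the text. Under arrhythmic feeding, 6 of 39 members had an unadjusted p under 0.05 in edgeR, against 1757 of 12712 genes tested. DESeq2 also called 0 members there, and 2 (Fga and C2) were called with the GC covariate. The 9 under night-restricted feeding were Serpinf2, Klkb1, Fga, Fgg, Vtn, Kng1, F12, Hrg and F10. Without night-restricted replicate 1, or without the 5 libraries of extreme slope, 3 of them were called, namely Klkb1, Serpinf2 and Fga, against 17.5% and 23.2% of all genes. Vtn had 803, 647 and 567 CPM at ZT 2 and 485, 385 and 448 CPM at ZT 14 under night-restricted feeding, with a range of 0.64 ± 0.17 (adjusted p = 0.00914, and 0.113 without replicate 1). F10 had a range of 0.65 ± 0.21 at ZT 2.5 (adjusted p = 0.0399), and lost its call under 8 alternatives, with a range of 0.21 (adjusted p = 0.282) with the GC covariate.

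Most genes of the clotting cascade and of complement did not pass a test of rhythm. F5, a cofactor of prothrombin activation, passed on average with a range of 0.31 ± 0.086 at ZT 10.3 ± 1.05 h (adjusted p = 0.0102). That call was lost with the 6 times as separate levels in place of a cosine, and without ad libitum replicate 3. Under night-restricted feeding F5 had 297, 202 and 307 CPM at ZT 10 and 134, 173 and 226 CPM at ZT 22, and the 2 times overlapped. F2 had ranges of 0.16 ± 0.11, 0.27 ± 0.11, 0.28 ± 0.11 and 0.081 ± 0.11 under incompletely adapted arrhythmic, arrhythmic, night-restricted and ad libitum feeding. F7 and F9 passed in no paradigm, at 0.65 ± 0.40, 0.79 ± 0.40, 0.84 ± 0.40 and 0.57 ± 0.40 for F7. Of the 19 complement genes, only Vtn passed a test of rhythm in edgeR with all libraries, while C2, Masp2, C3, Mbl2 and Cfi passed on average with the GC covariate. The nearest to the threshold under arrhythmic feeding was C2, with a range of 0.86 ± 0.25 at ZT 14.2 (adjusted p = 0.0982, and 0.0499 with the GC covariate). C2 had 59.1, 53.1 and 67 CPM at ZT 2 and 71.8, 140.3 and 96 CPM at ZT 14 under arrhythmic feeding, which did not overlap. Under night-restricted feeding the largest range among the classical and lectin genes was that of C1ra, 0.95 ± 0.34 (adjusted p = 0.0601). Ranges of the 6 terminal genes were 0.218 to 0.714 under incompletely adapted arrhythmic, 0.0357 to 0.58 under arrhythmic, 0.281 to 0.669 under night-restricted and 0.113 to 0.549 under ad libitum feeding. The 4 anticoagulants had average ranges of 0.045 to 0.255, and antithrombin (Serpinc1) stayed between 0.13 ± 0.13 under incompletely adapted arrhythmic and 0.18 ± 0.13 under night-restricted feeding.

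A fitted range cannot be below 0, so noise alone gives a positive value, and the members' ranges are read beside those of all genes. The median range of the 39 members was 0.462 under incompletely adapted arrhythmic feeding against 0.423 for all genes tested, and 0.345 against 0.434 under arrhythmic feeding. It was 0.559 against 0.706 under night-restricted and 0.281 against 0.521 under ad libitum feeding. On average over paradigms it was 0.181 against 0.342. Among genes at 10 CPM or more, which vary less by counting, the average median was 0.194 for 36 members against 0.288 for 6473 genes. The members' fitted peak times gathered in a different part of the day in each paradigm, which was not tested. Peaks of all genes tested were not counted in these windows, so nothing here sets the members apart from other genes. Members that vary together within groups, such as Plg and Kng1 (r = 0.886), also do not give separate peaks. Of 39 fitted peaks, 20 fell between ZT 16 and ZT 22 under incompletely adapted arrhythmic, 20 between ZT 10 and ZT 16 under arrhythmic, 19 between ZT 22 and ZT 4 under night-restricted and 16 between ZT 4 and ZT 10 under ad libitum feeding, most of them from fits that did not pass. The highest mean GC slope stood at ZT 18 under incompletely adapted arrhythmic (0.0857 ± 0.102), at ZT 14 under arrhythmic (0.0638 ± 0.112), at ZT 2 for night-restricted (0.164 ± 0.158) and at ZT 6 for ad libitum feeding (0.0955 ± 0.137; SD, n = 3 each), inside those windows in each paradigm, and its part in these peak times was not tested.

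**Figure D3:**
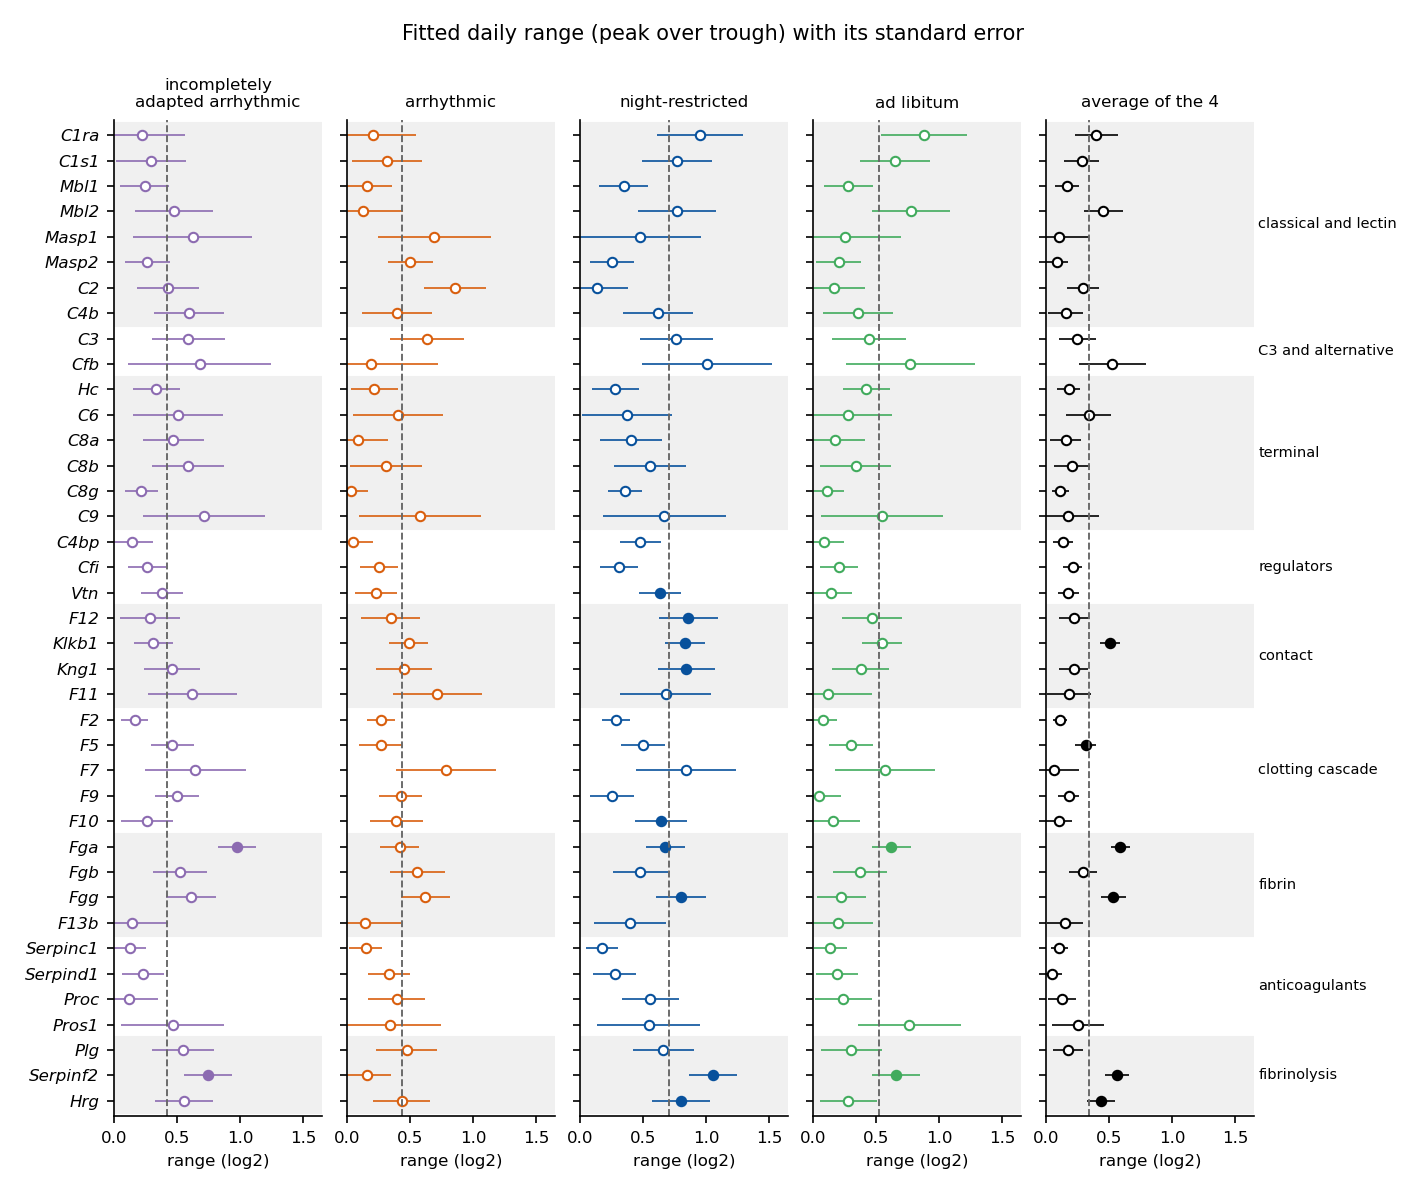
Fitted daily range (log2, peak over trough, ± SE) of the 39 genes in each paradigm and on average, by role; filled points passed a false discovery rate of 0.05 over all genes, and the dashed line is the median of all 12712 genes tested. Most members lie at or left of the dashed line on average, and the filled points to its right there are Klkb1, Fga, Fgg, Serpinf2 and Hrg.

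A difference of rhythm among the 4 paradigms was called for 0 of 39 members, against 1.45% of all genes. With a block for replicate number within paradigm, more members and more of all genes were called for this test. The same held for the rhythm of arrhythmic against night-restricted feeding, and those counts are given at the end of the text. In edgeR 8 of 39 members had an unadjusted p under 0.05, against 2293 of 12712 genes. DESeq2 called 3 members, namely Fga, Serpinf2 and Kng1. The lowest adjusted p-values in edgeR were 0.0734 for Fga, 0.0776 for Serpinf2 and 0.0952 for Kng1, and then 0.167 for Vtn, 0.175 for F12 and 0.199 for Plg. Between arrhythmic and night-restricted feeding, 1 of 39 members differed in rhythm, Kng1, against 3.89% of all genes (adjusted p = 0.0301). Kng1 encodes kininogen, the precursor of bradykinin and a cofactor of the contact system. It peaked at ZT 15.4 ± 1.89 h with a range of 0.45 ± 0.22 under arrhythmic feeding and at ZT 1.99 ± 1.01 h with a range of 0.84 ± 0.22 under night-restricted feeding, where the range with the GC covariate was 0.44. At ZT 2 Kng1 had 2485, 3284 and 3288 CPM under arrhythmic feeding, against 6884, 4532 and 4843 CPM under night-restricted feeding. These did not overlap, whereas the values at ZT 14 ran the other way, with 3900.4, 4511 and 3416 CPM under arrhythmic and 3346, 2601 and 3329 CPM under night-restricted feeding. Kng1 followed the GC slope within groups (r = 0.802), and the call was lost with the GC covariate (adjusted p = 0.119), without night-restricted replicate 1 (0.1) or 3, and without arrhythmic replicate 1 or 2. Between 2 and 4 members were called without night-restricted replicate 2 (Kng1 and Plg), without incompletely adapted arrhythmic replicate 1 (Kng1, F12, Vtn and Serpinf2) and without its replicate 3 (Kng1, F12 and F10), and DESeq2 called 7. Shares of all genes are not given for these settings, so these counts are not a result about the members. Kng2, the close copy of Kng1, was named here after its values were seen. Kng2 had an adjusted p of 0.0162 for the same difference (edgeR), and reads of the 2 genes could be shared. For the other pairs, 0 members were called for a rhythm difference in edgeR. The shares of all genes were 0.0236% for arrhythmic against ad libitum, 0% for night-restricted against ad libitum and 0% for incompletely adapted arrhythmic against arrhythmic feeding. In these 3 pairs 2, 3 and 2 members had an unadjusted p under 0.05, against 1150, 1109 and 310 of 12712 genes. DESeq2 also called 0 members in each.

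The mean level over the day differed among the 4 paradigms for 10 of 39 members (25.6%), against 12.3% of all genes. They were Hrg (adjusted p = 0.00523), Kng1 (0.00851), F7 (0.0153), F5 (0.0208), C6 (0.0216), C9 (0.0313), Mbl2 (0.0367), C3 (0.0388), Serpind1 (0.047) and Plg (0.0485). This count rests on few libraries. It was 7 of 39 with the GC covariate, 2 (Mbl1 and C6) without night-restricted replicate 1, and 0 without the 5 libraries of extreme slope, against 10.3%, 4.25% and 3.1% of all genes. Leaving out incompletely adapted arrhythmic replicate 1, 2 or 3 gave 3, 5 and 19 members, against 6.19%, 7.94% and 30.1% of all genes. Leaving out arrhythmic replicate 1 or 3 gave 5 and 6, against 10.2% and 8.86%, and leaving out ad libitum replicate 1 gave 5, against 8.32%. Libraries of 1 paradigm with the same replicate number tended to deviate together (median r = 0.242, against -0.116 for different numbers). All mean-level tests here and below treated the 18 libraries of a paradigm as independent. Their SEs and p-values may therefore be too small.

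Between arrhythmic and night-restricted feeding, 3 members were higher under arrhythmic feeding, against 1.76% of all genes, and 2 were lower, against 5.16%, so that 5 of 39 (12.8%) differed against 6.92%. Over all 39 members the median log2 difference was -0.034 against 0.0013 for all genes tested, with 15 members higher and 24 lower. C9, the pore-forming component of the membrane attack complex, ran from 78.9 to 282 CPM (median 113) under arrhythmic, against 11.8 to 176 CPM (median 74) under night-restricted feeding, and the paradigms overlapped. Its log2 difference was 0.86 ± 0.24 (SE; adjusted p = 0.0251), a fold of 1.82. Mbl2, a mannose-binding lectin that starts the lectin pathway, averaged 657 ± 175 CPM under arrhythmic and 467 ± 185 CPM under night-restricted feeding (SD, n = 18 each), a log2 difference of 0.52 ± 0.16 (adjusted p = 0.0324). F5 averaged 264 ± 43 CPM under arrhythmic and 212 ± 52 CPM under night-restricted feeding, a difference of 0.33 ± 0.086 (adjusted p = 0.0164). F7, the protease that tissue factor binds to start clotting, was lower, with 54 to 179.5 CPM (median 83.2) under arrhythmic against 64 to 401 CPM (median 91.9) under night-restricted feeding and a difference of -0.69 ± 0.20 (adjusted p = 0.0271). Hrg was lower too, with 131 to 346 CPM (median 252) under arrhythmic against 221 to 507 CPM (median 324) under night-restricted feeding and a difference of -0.43 ± 0.11 (adjusted p = 0.0177). The libraries of the 2 paradigms overlapped for all 5 genes.

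These 5 differences moved with night-restricted replicate 1, of whose 6 libraries 4 had the high GC slopes (0.247 to 0.382), while those at ZT 10 and ZT 14 had slopes of 0.0573 and 0.0377. F7 ran from 137 to 401 CPM in the 6 night-restricted libraries of replicate 1, from 76.1 to 148 CPM in those of replicate 2 and from 64 to 85.7 CPM in those of replicate 3. C9 ran from 11.8 to 77 CPM, 43.9 to 112 CPM and 79.8 to 176 CPM in the same 3 sets. F7 was thus high and C9 low in replicate 1, and their r with the GC slope within groups was 0.915 and -0.773. Without replicate 1 the log2 difference of F7 was 0.015 (adjusted p = 0.981), so that its sign turned, and those of C9, Mbl2, F5 and Hrg were 0.54, 0.40, 0.25 and -0.31, with none past the test. Without arrhythmic replicate 1 none of the 5 passed either, and without its replicate 3 Hrg and F5 did. Without night-restricted replicate 2 or 3, 8 and 10 members were called, against 12.3% and 19.4% of all genes. With the GC covariate 4 of the 5 passed, at 0.70 for C9 (adjusted p = 0.00652), 0.36 for Mbl2 (0.0467), 0.26 for F5 (0.0235) and -0.42 for Hrg (0.0205), while F7 did not (-0.20, adjusted p = 0.15). Mbl1, the other mannose-binding lectin gene, was called with the covariate at 0.33 (adjusted p = 0.00279) and without night-restricted replicate 1 at 0.38 (adjusted p = 0.0401), against 0.20 ± 0.10 with all libraries (adjusted p = 0.186). Of the 25 members with a positive r with the GC slope, 21 had a lower mean under arrhythmic than under night-restricted feeding, and of the 14 with a negative r, 11 had a higher one. Both the r and the means use the same libraries, night-restricted replicate 1 among them, so this split is a description and not a test.

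**Figure D4:**
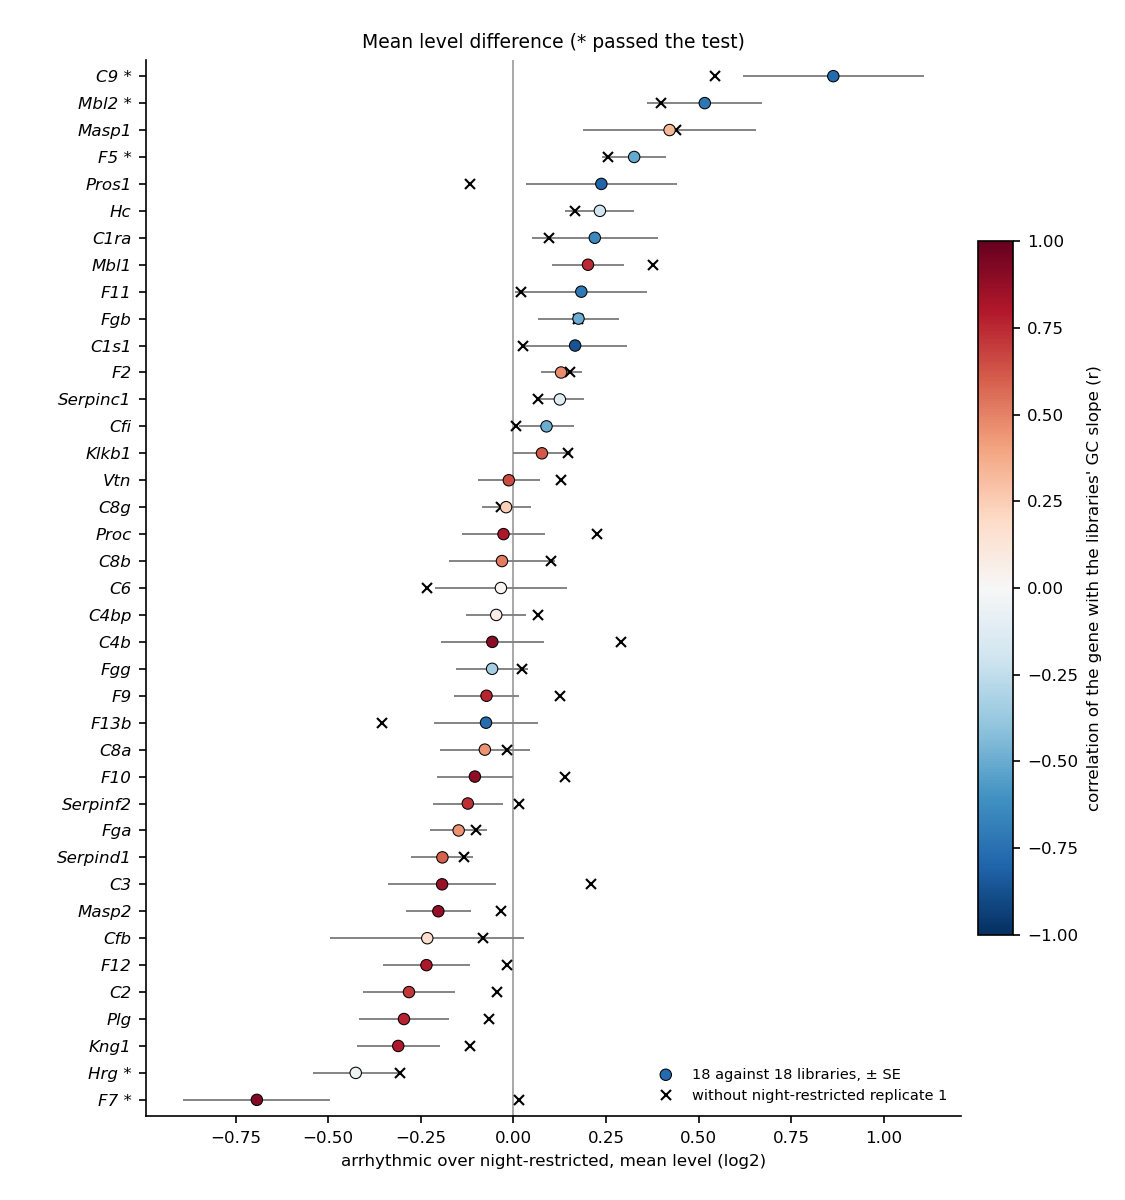
Log2 difference of the mean level, arrhythmic over night-restricted feeding, of the 39 genes (points ± SE, 18 against 18 libraries), with crosses for the value without night-restricted replicate 1; colour gives each gene's correlation with the GC slope within groups, and asterisks mark the 5 genes past the test. Red genes gather at the bottom and blue ones at the top, and the cross of F7 lies at 0.015, beside 0.

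**Figure D5:**
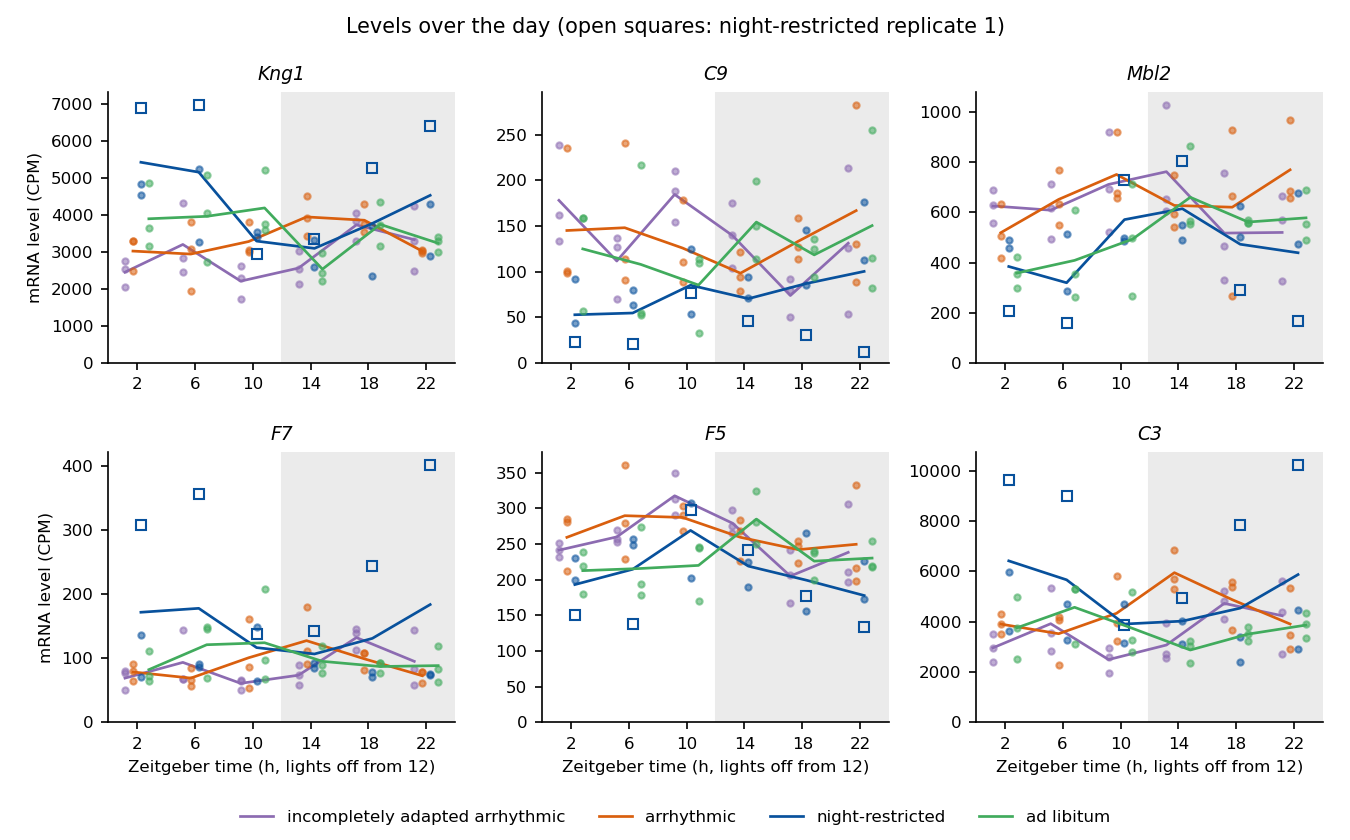
Levels (CPM) of Kng1, C9, Mbl2, F7, F5 and C3 over zeitgeber time in the 4 paradigms, with single libraries as points, means as lines and night-restricted replicate 1 as open squares; the dark phase is shaded. At ZT 2, 6, 18 and 22 the squares lie above the other night-restricted libraries for Kng1, F7 and C3, and below them for C9 and Mbl2.

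The other pairs gave 0 called members in edgeR. For arrhythmic against ad libitum feeding all genes gave 2.1% (0.661% higher and 1.44% lower), and 0 of 39 members were called. In this pair 4 members had an unadjusted p under 0.05, against 1782 of 12712 genes, and DESeq2 called 1, C6. C6, a part of the membrane attack complex, ran from 23.8 to 93.8 CPM (median 50.5) under arrhythmic, against 57.1 to 123 CPM (median 74.5) under ad libitum feeding, and averaged 52 ± 18.5 CPM and 78.8 ± 19.3 CPM (SD, n = 18 each), a log2 difference of -0.60 ± 0.18 (adjusted p = 0.0545). Without ad libitum replicate 3, 2 members passed in this pair, Mbl2 and C8a. For night-restricted against ad libitum feeding 0 of 39 members were called, and the figure for all genes was 1.62% (0.724% higher and 0.897% lower). Here 11 members had an unadjusted p under 0.05, against 2085 of 12712 genes, and DESeq2 called 2, Hrg and C6. Hrg averaged 335 ± 87.7 CPM under night-restricted and 249.9 ± 48 CPM under ad libitum feeding, a log2 difference of 0.40 ± 0.11 (adjusted p = 0.0509), and the difference of C6 was -0.57 ± 0.18 (adjusted p = 0.0763). Without night-restricted replicate 3, 9 members passed in this pair against 13.1% of all genes, and without its replicate 2, 7 against 5.94%. Without ad libitum replicate 2, C9 and C3 passed. For incompletely adapted arrhythmic against arrhythmic feeding the figure for all genes was 0%, and DESeq2 called 0 members. An unadjusted p under 0.05 was found for 3 members (C3, Serpinf2 and Proc), against 639 of 12712 genes. C3 averaged 3571 ± 1125 CPM under incompletely adapted arrhythmic and 4418 ± 1201 CPM under arrhythmic feeding, a log2 difference of -0.30 ± 0.15 (adjusted p = 0.981). Kng1 averaged 2912 ± 772 CPM, 3341 ± 619 CPM, 4208 ± 1442 CPM and 3589.7 ± 861 CPM under incompletely adapted arrhythmic, arrhythmic, night-restricted and ad libitum feeding (SD, n = 18 each), and none of the 4 pairs compared passed for it (lowest adjusted p = 0.0739, for arrhythmic against night-restricted feeding). The comparisons share their arrhythmic, night-restricted or ad libitum libraries with each other.

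Over 741 pairs of members, the correlation of log2 deviations within groups of 1 paradigm and time ran from -0.883 (F7 and Pros1) to 0.886 (Kng1 and Plg), with a median of 0.0821 over the 72 libraries, which share the GC slope. F7 and F10, which lie 1498 bases apart on chromosome 8, had r = 0.801, and Hrg and Kng1, 96208 bases apart on chromosome 16, had r = 0.207. In F7 and F10 the r with the GC slope was 0.915 and 0.889, and in Hrg and Kng1 it was -0.047 and 0.802.

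RefSeq promoter windows were used for 31 of the 39 genes. Windows on chromosome 18, which holds Proc, were left out for the members but kept among all windows. A share of the members' windows is a share of these 31 genes with a match, whereas all windows were counted singly. GTTAAT was found in 32.3% of the members' windows and 7.1% of all windows, TTNNGCAA in 35.5% of the members' windows and 10.8% of all windows, TTCNNNGAA in 25.8% of the members' windows and 8.3% of all windows, CTGGGAA in 22.6% of the members' windows and 11.1% of all windows and AGGTCA in 38.7% of the members' windows and 16.3% of all windows. The D-box letters TTATGNAA were in 9.68% of the members' windows and 3.38% of all windows. The E-box letters CACGTG, to which clock activators bind, were found for 0 of these 31 members and in 7.15% of all windows. TTCNNNGAA and CACGTG read the same on both strands and were counted once. All windows were not matched to the members' windows for base composition or for expression in liver. The differences between these shares were not tested.

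The counts of the following lists stand beside shares of all genes of 32.1% for the average rhythm, 3.63%, 3.37%, 29.9% and 7.48% for rhythm under incompletely adapted arrhythmic, arrhythmic, night-restricted and ad libitum feeding, and 12.3% for mean level among paradigms. Of 30 further complement genes, 21 were tested, of which 3 were rhythmic under night-restricted feeding and 3 differed in mean level among paradigms. Of 27 further coagulation and fibrinolysis genes, 21 were tested, of which 6 were rhythmic on average and 6 under night-restricted feeding, and 5 differed in mean level among paradigms. Serpina5, Anxa2 and S100a10 had the smallest p for the average rhythm, with log2 ranges of 2.41 ± 0.37, 0.94 ± 0.15 and 0.64 ± 0.13. Their mean levels were 0.585, 32.0 and 114 CPM, so Serpina5 lay below the 1 CPM set for members. Anxa2 and S100a10 encode a cell-surface receptor for plasminogen activation. Of 10 genes of the vitamin K cycle and of factor secretion, which serve the carboxylation and export of clotting factors, 1 was rhythmic on average, P4hb (0.21 ± 0.063), and 3 under night-restricted feeding. Of 19 transcription factors known at promoters of liver genes, 15 were rhythmic on average, and 4, 5, 11 and 5 of the 19 were rhythmic under incompletely adapted arrhythmic, arrhythmic, night-restricted and ad libitum feeding. Dbp, Tef and Hlf, the PAR bZIP factors that bind D-boxes, had the smallest p of that list, with average ranges of 5.37 ± 0.24, 2.14 ± 0.15 and 0.87 ± 0.070.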

How the data were processed

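The authors deposited whole-number counts of reads per gene for 72 libraries of a QuantSeq 3′ mRNA kit, per the labels. Reads were aligned with STAR 2.4.2a to mm10 (GRCm38.p5), per the submitters' processing notes, and the counting tool is not given in the sources used here. No 2 libraries held identical counts. Genes were filtered with edgeR's filterByExpr over the 24 groups, scaled by TMM and tested with edgeR 4.0.16 (quasi-likelihood, limma 3.58.1, R 4.3.3) in 1 cosine model with a mean, cosine and sine of 24 h per paradigm over all 72 libraries. Adjusted p-values are Benjamini-Hochberg over 12712 genes, with a threshold of 0.05. Levels are CPM on TMM-scaled totals, and log2 values use a prior count of 2. Alternatives were DESeq2 1.42.0, its size factors, no filter, a GC slope covariate, no libraries of extreme slope, replicate blocks, time as a factor and leaving out each replicate. Some counts of members under these alternatives stand without the share of all genes, and those counts are not a result about the members. The tests were tried on simulated data. Members and lists were chosen with earlier results of these data known. Genes given per library were the 5 of highest CPM, the 6 of smallest p for the average rhythm, for rhythm differences and for mean level, those called in a pair, and the least expressed.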

Additional observations from a re-analysis of the deposited data

Results flagged for a closer look

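The rhythm of Kng1, the kininogen gene, differed between arrhythmic and night-restricted feeding by a test of the difference itself (edgeR, adjusted p = 0.0301). The fitted peak stood at ZT 15.4 ± 1.89 h under arrhythmic and at ZT 1.99 ± 1.01 h under night-restricted feeding, and the call was lost under 7 of 20 alternatives. Kng1 was the 1 member of 39 called in this pair without a block for replicate number, and a block within paradigm called more.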

How the results depend on the processing

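The 35 calls of members, by gene and test, gave 670 values under the alternatives, of which 514 passed, 155 did not and 1 turned its sign, F7 between arrhythmic and night-restricted feeding without night-restricted replicate 1 (adjusted p = 0.981, against 0.000824 to 0.981 over the replicates left out). Counts of members that moved by over 1.5 times are as follows, and the causes were not tested. Shares of all genes do not stand beside them, so a moved count is not a result about the members. DESeq2 called 3 for a rhythm difference among paradigms, 7 for that between arrhythmic and night-restricted feeding, and 1 and 2 for mean level in arrhythmic and night-restricted against ad libitum feeding, and DESeq2 size factors gave 1 in the last pair. The GC covariate gave 2 rhythmic under arrhythmic feeding, 15 on average, 0 for the rhythm of arrhythmic against night-restricted feeding, and 3 and 2 for mean level in arrhythmic and night-restricted against ad libitum feeding. Without a filter 1 was rhythmic under incompletely adapted arrhythmic and 0 under ad libitum feeding, and 4 and 2 differed in mean level among paradigms and between arrhythmic and night-restricted feeding. Time as a factor gave 1 under incompletely adapted arrhythmic, 4 under night-restricted and 0 under ad libitum feeding, and 0 for the arrhythmic against night-restricted rhythm. Without the 5 libraries of extreme slope 1, 1 and 3 were rhythmic under incompletely adapted arrhythmic, arrhythmic and night-restricted feeding, 0 differed in mean level among paradigms, 0 in mean level or rhythm between arrhythmic and night-restricted feeding, and 1 in mean level between arrhythmic and ad libitum feeding, while on average 9 were rhythmic.

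Same-numbered libraries of 1 paradigm had a median correlation of 0.242 (-0.428 to 0.835, 127 of 180 over 0.1), those of 1 paradigm with different numbers one of -0.116 (94 of 360 over 0.1), and same-numbered libraries of different paradigms one of -0.017. Numbers thus tended to group libraries within a paradigm. The main analysis has no block, because not every pair was over 0.1 and the labels name no shared source. That rule does not test for grouping, and the counts of rhythm calls depend on the choice. Without a block, 0 members were rhythmic under arrhythmic and 9 under night-restricted feeding, and 6 on average. A rhythm difference was then called for 0 among paradigms and for 1 between arrhythmic and night-restricted feeding. A replicate block gave 1 member for mean level in arrhythmic and 1 in night-restricted against ad libitum feeding, and a block within paradigm gave 2 under arrhythmic and 16 under night-restricted feeding (6.0% and 41.9% of all genes), 9 for a rhythm difference among paradigms (11.7%) and 12 between arrhythmic and night-restricted feeding (17.9%), as well as 9 on average (40.7%). Leaving out 1 replicate gave 0 to 2 under incompletely adapted arrhythmic, 0 to 1 under arrhythmic, 3 to 11 under night-restricted and 0 to 3 under ad libitum feeding, 6 to 8 on average, 0 to 1 for rhythm and 2 to 19 for mean level among paradigms. In pairs it gave 0 to 1 for mean level between incompletely adapted arrhythmic and arrhythmic, 0 to 10 for mean level and 0 to 4 for rhythm between arrhythmic and night-restricted, 0 to 2 for mean level between arrhythmic and ad libitum and 0 to 9 between night-restricted and ad libitum feeding. Depth limits Masp1, Cfb and F11, which had few reads per library.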
